A study of Mus musculus with 60 samples.

Results

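The genes followed here in mouse hearts over the day serve iron uptake, storage, export and heme metabolism, namely Tfrc, Slc11a2, Steap3, Fth1, Ftl1, Slc40a1, Hamp, Ireb2, Alas1 and Hmox1. They are the 10 rows, of 53700 gene rows in the count table, whose Ensembl identifiers map to these symbols, and all 10 were among the 18119 genes with enough counts to be tested. Every animal was a male C57BL/6 mouse carrying αMHC-rtTA, a doxycycline-activated transactivator that the α-myosin heavy chain promoter restricts to cardiomyocytes. CON mice carried this transgene alone. dnOGAh mice also carried TRE-EGFP-dnOGA, a rat splice variant of O-GlcNAcase that acts as a dominant negative, so that O-GlcNAc is removed from proteins less readily. Both genotypes received 100 µg doxycycline by injection at 10 weeks of age and then a diet with 1 g/kg doxycycline, and hearts were taken 2 weeks later. Polyadenylated RNA of biventricular tissue, with all its cell types, was sequenced from 5 hearts per genotype at ZT0 (labelled ZT24), ZT4, ZT8, ZT12, ZT16 and ZT20, with lights on at ZT0 and off at ZT12. The comparisons ask how each gene differed between the genotypes, at which times, and whether its 24 h rhythm was kept.

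Iron reaches most cells bound to transferrin, which the transferrin receptor carries into endosomes, where the iron is reduced and passed to the cytosol. What is not used is held in ferritin cages, leaves through ferroportin, or is built into heme and iron-sulfur clusters, both abundant in heart mitochondria. When iron is scarce, the iron regulatory proteins bind hairpins called iron-responsive elements, which block translation when they lie before a coding sequence and protect the mRNA from decay when they lie after it. Heme is broken down by heme oxygenase, which releases the iron again, and this enzyme is abundant in the macrophages that clear red cells.

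The hairpins are shown because they mark mRNAs that may be controlled in this way. Of the members that hold them, Ftl1 was higher in dnOGAh hearts, while Tfrc, Fth1 and Slc40a1 were lower. GENCODE M21 transcripts of the mouse genome build GRCm38 were searched on the transcript strand for a bulged C, then 5 bases, the loop CAGTGN and 5 bases that pair with those before the loop. G-U pairs were allowed, and at least 4 of 5 pairs were required below the bulge. Matches were present in the untranslated regions of 4 members and of 17 of 21157 genes with a protein-coding transcript (0.0804%). Among the other matches were Alas2, the erythroid form of the first heme enzyme, the ferritin copy Ftl1-ps1, and 11 further genes. The loop is in capitals, and coordinates are of GRCm38.
Tfrc 3′ untranslated region, chr16:32631220-32631246, plus strand: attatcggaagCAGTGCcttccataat
Tfrc 3′ untranslated region, chr16:32631599-32631625, plus strand: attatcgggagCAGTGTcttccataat
Tfrc 3′ untranslated region, chr16:32631664-32631690, plus strand: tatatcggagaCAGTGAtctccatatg
Tfrc 3′ untranslated region, chr16:32631711-32631737, plus strand: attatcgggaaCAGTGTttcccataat
Fth1 5′ untranslated region, chr19:9982733-9982759, plus strand: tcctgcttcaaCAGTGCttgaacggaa
Ftl1 5′ untranslated region, chr7:45459780-45459806, minus strand: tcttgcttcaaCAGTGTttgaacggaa
Slc40a1 5′ untranslated region, chr1:45925466-45925492, minus strand: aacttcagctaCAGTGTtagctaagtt
Tfrc thus held 4 matches after its coding sequence, and both ferritins and ferroportin held 1 each before it. A match is a description of sequence, and no binding was measured. The search asked for this form only, so a gene without a match may still hold such a hairpin.

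Counts assigned to genes ran from 9162859 to 82938039 per library, with a median of 18012099 in CON and 27845514 in dnOGAh. Values are CPM, counts relative to the library total times a TMM factor that corrects for differences in composition, and fold changes are dnOGAh minus CON on the log2 scale with standard errors. Mgea5, the name in the table for the O-GlcNAcase gene, can also receive reads from the transgene and lay between 46.7 and 72.1 CPM in CON hearts and between 182.2 and 836 CPM in 29 dnOGAh hearts. The library labelled dnOGAh ZT12 replicate 3 had 70.0 CPM, inside the CON range. Mitochondrial genes took a median of 30.7% of the counts in CON libraries and 17.2% in dnOGAh libraries. In replicate 4 of ZT4, they took 77.6% of the counts in the CON library and 66.0% in the dnOGAh library. These 3 libraries also stood apart in several of the iron genes. All 8 cardiomyocyte markers were lower in dnOGAh hearts (summed level 30901 to 67147 CPM in CON and 17634 to 77709 in dnOGAh, or 47558 to 67147 and 17634 to 37884 without the 3 libraries). All 8 had counts in every library. All 6 fibroblast markers were higher (854 to 1165 CPM summed in CON, 1283 to 6520 in dnOGAh, where the lowest was 2978 without the 3 libraries). Of 6 endothelial markers 5 were lower (465 to 1127 and 243 to 909, or 465 to 710.0 and 243 to 634 without them), and no fibroblast or endothelial marker was at 0 in any library. These marker calls are given with TMM only, where 38.8% of all genes were higher and 31.9% lower. In bulk tissue, fewer cells of a type and less RNA per cell cannot be told apart.

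Over the whole day 8 of the 10 genes differed between the genotypes, against a background of 70.7% of all tested genes. Hmox1, Ftl1 and Slc11a2 were higher in dnOGAh hearts (38.8% of all genes were), and Alas1, Hamp, Slc40a1, Fth1 and Tfrc were lower (31.9% of all genes were). Steap3 and Ireb2 were not called. None of the 10 genes separated all 30 hearts of each genotype (1.06% of all genes did), and without the library labelled dnOGAh ZT12 replicate 3 only Hmox1 did (4.29% of all genes). Hearts are compared by CPM, which does not allow for gene length, so levels are not compared between genes. Across all genes 7030 were higher and 5783 lower, but with library totals and no TMM factor the split became 11766 and 2067, and the median of all genes moved from 0.06 to 0.54. On that scale Fth1 (0.09, adjusted p = 0.399 by edgeR's quasi-likelihood test) and Tfrc (0.18, adjusted p = 0.25) lost their call and changed sign. Relative to the median of all genes they barely moved, at -0.44 with TMM and -0.45 without for Fth1, and at -0.38 and -0.36 for Tfrc.

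**Figure D1:**
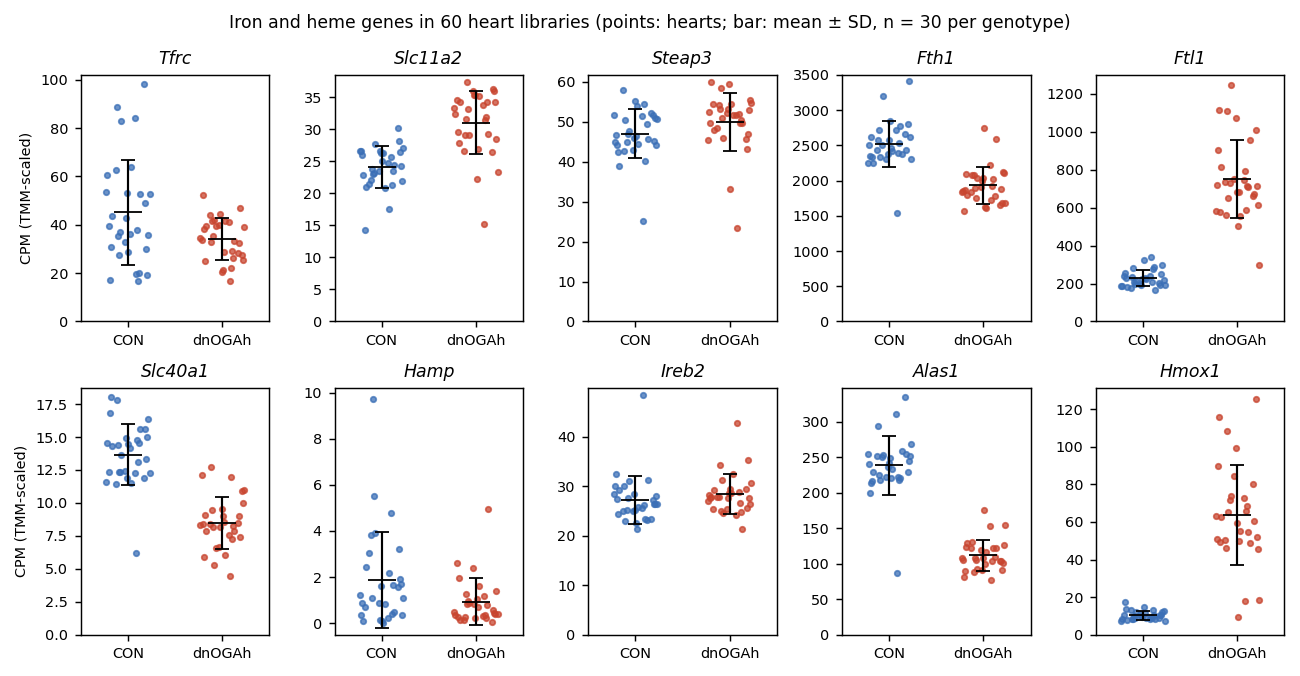
CPM (TMM-scaled, linear axes) of the 10 genes in 30 CON and 30 dnOGAh hearts. Points are hearts and bars the mean ± SD. The genotypes are nearly separate for Hmox1 and Ftl1 (29 of 30 dnOGAh hearts lie above every CON heart). They overlap in part for Alas1 and Slc40a1, and fully for Tfrc, Fth1, Hamp and Ireb2. For Fth1 the full overlap rests on CON ZT4 replicate 4, without which the lowest CON heart is at 2243 CPM. With no TMM factor the differences in Tfrc and Fth1 changed sign.

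Tfrc encodes transferrin receptor 1, the main route of iron into cardiomyocytes. Its mean was 45.1 ± 21.9 CPM (SD, n = 30) in CON and 34.1 ± 8.71 (SD, n = 30) in dnOGAh hearts. The lowest, median and highest hearts were at 16.6, 38.5 and 98.1 CPM in CON and at 16.7, 34.0 and 52.3 CPM in dnOGAh. All dnOGAh hearts thus lay within the CON range, and none reached its upper part. The log2 fold change over the day was -0.31 (standard error 0.107, adjusted p = 0.00797 by edgeR's quasi-likelihood test), with a lower mean at 5 of 6 times and the change of sign without TMM given above.

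The values at single times are given next. In CON hearts at ZT0, Tfrc was at 53.4, 62.6, 33.0, 84.0 and 98.1 CPM in replicates 1 to 5. At ZT4 it was at 60.7, 88.6, 42.7, 19.7 and 49.1 CPM, the 19.7 being the library rich in mitochondrial counts. CON hearts were thus high around lights on, with a wide spread. At ZT8 the values were 39.4, 35.2, 53.1, 37.7 and 29.8 CPM. At ZT12, the start of the dark phase, they were 17.1, 27.4, 28.9, 16.6 and 19.3 CPM. All 5 hearts at ZT12 lay below all 5 at ZT0. At ZT16 Tfrc was at 30.8, 37.1, 36.2, 19.9 and 35.9 CPM. At ZT20 it was back at 43.5, 82.8, 63.8, 52.9 and 52.9 CPM. The order of the CON means was ZT0 (66.2), ZT20 (59.2), ZT4 (52.2), ZT8 (39.0), ZT16 (32.0) and ZT12 (21.8), and only the last step, from ZT16 to ZT12, was larger than the SD of both neighbours.

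In dnOGAh hearts at ZT0, Tfrc was at 34.4, 44.2, 39.8, 40.97 and 28.4 CPM. At ZT4 it was at 33.6, 33.0, 44.4, 16.7 and 32.4 CPM, with the low value again in the library rich in mitochondrial counts. None of these 10 hearts reached the CON mean of its time. At ZT8 the values were 52.3, 41.4, 20.6, 22.03 and 46.9 CPM. At ZT12 they were 38.1, 35.2, 21.4, 29.0 and 27.5 CPM, and the 21.4 belongs to the library with O-GlcNAcase mRNA in the CON range. Here 4 of the 5 dnOGAh hearts lay above at least 4 of the 5 CON hearts. At ZT16 Tfrc was at 25.2, 42.1, 28.9, 26.3 and 25.3 CPM. At ZT20 it was at 39.6, 39.4, 41.4, 33.3 and 39.2 CPM. The 6 dnOGAh means ran from 29.5 to 38.6 CPM, a ratio of 1.31 against 3.03 in CON, and no 2 neighbours in their order differed by more than their SD.

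**Figure D2:**
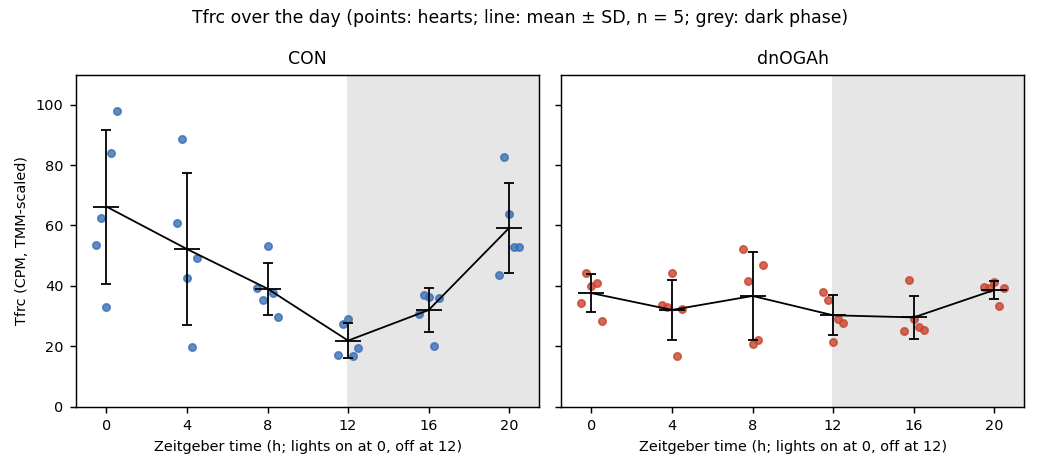
Tfrc (CPM, TMM-scaled) against zeitgeber time in hours in CON (left) and dnOGAh hearts (right). Points are hearts, the line joins the means ± SD (n = 5), and grey marks the dark phase. CON means fall from 66.2 at ZT0 to 21.8 at ZT12 and return, while dnOGAh means stay between 29.5 and 38.6.

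Tfrc was the only one of the 10 genes with a 24 h oscillation in CON hearts (JTK q = 0.00454, peak at ZT0), where 2.13% of all genes passed at q under 0.05. By cosinor its log2 amplitude was 0.71 ± 0.131 (standard error) with a peak at 24.0 h ± 0.706. In dnOGAh hearts none of the 10 passed, where 0.171% of all genes did, and Tfrc had q = 1 and an amplitude of 0.15 ± 0.102. At an unadjusted p under 0.05, Tfrc, Ftl1 and Alas1 passed in CON (3 of 10, against 11.8% of all genes) and none in dnOGAh (0 of 10, against 3.77%). Time of day also had an effect on Tfrc in CON (adjusted p = 0.000417 by edgeR's quasi-likelihood test, which 1.18% of all genes passed) and none that was called in dnOGAh (adjusted p = 1, where 0.375% passed). The CON value was 0.0515 without replicate 5 of every group and 0.057 with no TMM factor. The test of the rhythm difference itself gave an unadjusted p of 0.000939 (3.33% of all genes were under 0.05) and an adjusted p of 0.625 by edgeR over all genes, which 3 genes passed (0.0166%). The rhythms of the genotypes were thus not shown to differ, with adjusted p-values from 0.0547 to 1 over the alternatives and 0.0898 without the 3 libraries that stood apart. The CON oscillation also missed q = 0.05 without replicate 1 (0.0763) or replicate 5 (0.147) of every group, while leaving out any single CON library kept q between 0.0011 and 0.0132.

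By time, the Tfrc difference was -0.82 at ZT0 (adjusted p = 0.00906 by edgeR's quasi-likelihood test, as for all values at single times) and -0.72 at ZT4 (adjusted p = 0.029). It was 0.48 at ZT12 (adjusted p = 0.176), and 0.60 without the 3 libraries that stood apart (adjusted p = 0.0402). At ZT20 it was -0.61 (adjusted p = 0.0564), and without those libraries it was called as well (-0.61, adjusted p = 0.0226). So the gene was lower in dnOGAh hearts where CON hearts were high, and the ZT12 and ZT20 values crossed the threshold or not with these libraries. At ZT0, without replicate 5 of every group, the difference was -0.55 (adjusted p = 0.179). At ZT4 it lost its call without replicate 1 (adjusted p = 0.104), replicate 2 (0.27) or replicate 5 (0.0733). Without TMM neither time was called, at -0.39 and -0.21.

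Slc11a2 encodes DMT1, which moves ferrous iron out of the endosome. The lowest, median and highest levels were 14.3, 24.3 and 30.2 CPM in CON and 15.2, 32.2 and 37.4 CPM in dnOGAh, where 18 of 30 hearts lay above every CON heart. The low dnOGAh heart was ZT4 replicate 4, and the library labelled dnOGAh ZT12 replicate 3 was at 22.2 CPM. The log2 fold change was 0.37 (standard error 0.062, adjusted p = 6.69e-07 by edgeR's quasi-likelihood test), a 1.29-fold higher level with a higher mean at 6 of 6 times. It was called at ZT8, ZT12 and ZT16, and at all 6 times without the 3 libraries that stood apart. When each replicate number was left out in turn, the call was lost in 4 of 5 fits at ZT8, 3 of 5 at ZT12 and 2 of 5 at ZT16. With no TMM factor the difference over the day was 0.87, against 0.32 relative to the median of all genes.

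Steap3, the ferrireductase that reduces iron in the endosome, was at 25.2, 46.6 and 58.1 CPM (lowest, median, highest) in CON and at 23.3, 51.6 and 59.99 CPM in dnOGAh. Both lowest values were those of ZT4 replicate 4. On the log2 scale dnOGAh differed from CON by 0.09 (standard error 0.0577, adjusted p = 0.167 by edgeR's quasi-likelihood test). Without the 3 libraries it was 0.13 (adjusted p = 0.0011), in DESeq2 0.12 (adjusted p = 0.0442) and with no TMM factor 0.58 (adjusted p = 2.03e-06), which is 0.04 relative to the median of all genes.

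The ferritin chains moved apart. Fth1 encodes the heavy chain, which oxidises iron as it enters the cage, and Ftl1 the light chain, which helps to lay down the iron core. Ftl1 was at 167, 219.6 and 338 CPM (lowest, median, highest) in CON and at 299.7, 714.5 and 1248 CPM in dnOGAh hearts. Only dnOGAh ZT20 replicate 5, at 299.7 CPM, fell within the CON range, and the next lowest was the library labelled dnOGAh ZT12 replicate 3, at 501 CPM. The log2 fold change was 1.72 (standard error 0.0882, adjusted p = 2.44e-24 by edgeR's quasi-likelihood test), a 3.29-fold higher level. It was called at all 6 times, with differences from 1.43 at ZT12 to 1.99 at ZT20.

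Fth1 went the other way by a smaller step. Its lowest, median and highest levels were 1543, 2483 and 3413 CPM in CON and 1575, 1889 and 2747 CPM in dnOGAh hearts. The lowest CON heart was ZT4 replicate 4 and the highest dnOGAh heart the library labelled dnOGAh ZT12 replicate 3. The other 29 CON hearts were at or above 2243 CPM, and the other dnOGAh hearts at or below 2597 CPM. On the log2 scale dnOGAh differed from CON by -0.38 (standard error 0.0554, adjusted p = 1.97e-08 by edgeR's quasi-likelihood test), a 1.30-fold lower level, with the change of sign without TMM given above. Fth1 was called at every time but ZT4, and there too without the 3 libraries (-0.33, adjusted p = 0.0315). When each replicate number was left out in turn, the call was lost in 4 of 5 fits at ZT20, 3 of 5 at ZT12 and 2 of 5 at ZT0, and in none at ZT8 and ZT16.

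The ratio of both ferritin counts within a library does not depend on scaling. The log2 of Ftl1 over Fth1 counts was -3.47 ± 0.305 (SD, n = 30) in CON and -1.41 ± 0.439 (SD, n = 30) in dnOGAh hearts, a difference of 2.06. The highest CON library was at -2.19 and the lowest dnOGAh library at -2.49, and 28 of 30 dnOGAh libraries lay above every CON library. The -2.19 was CON ZT4 replicate 4, and without it the highest CON library was at -3.13, below all 30 dnOGAh libraries. Ferritin genes have many processed copies, and some alignments were left out because they were not unique. These made up between 11.0% and 39.4% of all records tallied per library. Their median share was 23.1% in CON and 16.0% in dnOGAh, so the levels of Fth1 and Ftl1 are uncertain. Ftl1-ps1 took 0.148% as many counts as Ftl1 and had a log2 fold change of 1.47 (adjusted p = 6.68e-12 by edgeR's quasi-likelihood test). Fth-ps2 took 0.0348% as many as Fth1 and was not called (-0.27, adjusted p = 0.299), and Fth-ps3, Fthl17a, Ftl1-ps2 and Ftl2-ps had at most 4 counts in any library.

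Slc40a1 encodes ferroportin, the exporter of cellular iron. Its lowest, median and highest levels were 6.20, 13.9 and 18.1 CPM in CON and 4.46, 8.35 and 12.7 CPM in dnOGAh hearts. The lowest value of each genotype was ZT4 replicate 4, and the other CON hearts were all at or above 11.46 CPM. The log2 fold change was -0.69 (standard error 0.0775, adjusted p = 1.37e-11 by edgeR's quasi-likelihood test), a 1.62-fold lower level. It was called at all 6 times, from -0.51 at ZT8 to -0.87 at ZT16. When each replicate number was left out in turn, the call was lost in 3 of 5 fits at ZT8, 2 of 5 at ZT4 and 1 of 5 at ZT0. With no TMM factor the difference over the day was -0.21 (adjusted p = 0.0781), against -0.76 relative to the median of all genes, and no single time was called (-0.15 at ZT0, -0.10 at ZT4).

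Hamp encodes hepcidin, the hormone that binds ferroportin and sends it to degradation, which comes mainly from the liver. Its counts were few, from 0 to 233 per library. The lowest, median and highest levels were 0, 1.16 and 9.71 CPM in CON and 0.0567, 0.643 and 4.97 CPM in dnOGAh, so that the genotypes overlapped fully. On the log2 scale dnOGAh differed from CON by -1.08 (standard error 0.385, adjusted p = 0.0112 by edgeR's quasi-likelihood test), and no single time was called. The highest value was CON ZT12 replicate 2, and without that 1 library the fold change was -0.77 (adjusted p = 0.0549). It was -0.69 (adjusted p = 0.128) in limma with voom weights and -0.27 (adjusted p = 0.565) without replicate 2 of every group, so the lower level of Hamp was not stable.

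Atrial genes varied together with Hamp. CON ZT12 replicate 2 also had 373 CPM of Myl7, against a median of 52.0 and a highest value of 410 in the other CON hearts, and 66.4 CPM of Bmp10, against a median of 0.198 and a highest value of 35.01. Of 6 atrial markers Myl7 and Sln were lower in dnOGAh hearts, Nppa was higher, and the others were not called. Without TMM, Sln lost its call (-0.58, adjusted p = 0.19). Their summed level ran from 19.5 to 1483 CPM in CON (median 240.3) and from 389 to 2236 in dnOGAh (median 676). Nppa carried the higher sum in dnOGAh, with means of 37.8 and 617 CPM. Without it the sum ran from 7.94 to 1346 CPM in CON (median 211) and from 30.7 to 1095 in dnOGAh (median 116), and Bmp10 was at 0 in 8 libraries. The part of atrial tissue in the Hamp difference was not tested. Of 7 hepatocyte markers only 3 had enough counts to test (summed level 0.188 to 8.44 CPM in CON and 1.25 to 7.59 in dnOGAh) and Alb was at 0 in 45 of 60 libraries. The near-copy Hamp2 had at most 5 counts in a library.

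Ireb2 encodes iron regulatory protein 2, which binds the hairpins shown above. Its lowest, median and highest levels were 21.3, 26.4 and 48.5 CPM in CON and 21.4, 27.8 and 42.8 CPM in dnOGAh. Both highest values were ZT4 replicate 4, and the other hearts were at or below 32.4 CPM in CON and 35.3 CPM in dnOGAh. The log2 fold change was 0.07 (standard error 0.0508, adjusted p = 0.238 by edgeR's quasi-likelihood test), and no time was called. Without TMM it was 0.55, close to the median of all genes.

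Alas1 encodes the first and rate-limiting enzyme of heme synthesis outside red cells. Its lowest, median and highest levels were 86.5, 238 and 335 CPM in CON and 76.9, 107 and 176 CPM in dnOGAh hearts. The lowest CON heart was ZT4 replicate 4, and the next lowest CON value was 199.5 CPM. The highest dnOGAh heart was the library labelled dnOGAh ZT12 replicate 3. On the log2 scale dnOGAh differed from CON by -1.09 (standard error 0.0705, adjusted p = 2.84e-20 by edgeR's quasi-likelihood test), a 2.13-fold lower level that was called at all 6 times, from -0.94 at ZT12 to -1.25 at ZT8. Without TMM it was -0.63 (adjusted p = 2.83e-07), and the calls at ZT12 (adjusted p = 0.1), ZT16 (0.0777) and ZT20 (0.0635) were lost.

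Hmox1 encodes heme oxygenase 1, the inducible enzyme that opens the heme ring. Its lowest, median and highest levels were 7.27, 9.81 and 17.2 CPM in CON and 9.52, 61.6 and 125 CPM in dnOGAh hearts. The 9.52 was the library labelled dnOGAh ZT12 replicate 3, and the other 29 dnOGAh hearts lay above every CON heart, at 18.0 CPM or more. The log2 fold change was 2.60 (standard error 0.138, adjusted p = 8.25e-24 by edgeR's quasi-likelihood test), a 6.07-fold higher level and the largest change of the 10 genes. It was called at all 6 times, from 2.22 at ZT12 to 3.23 at ZT8. The log2 ratio of Hmox1 to Alas1 counts, free of scaling, was -4.51 ± 0.468 (SD, n = 30) in CON and -0.95 ± 0.952 (SD, n = 30) in dnOGAh, a difference of 3.57 (3.77 without the 3 libraries).

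**Figure D3:**
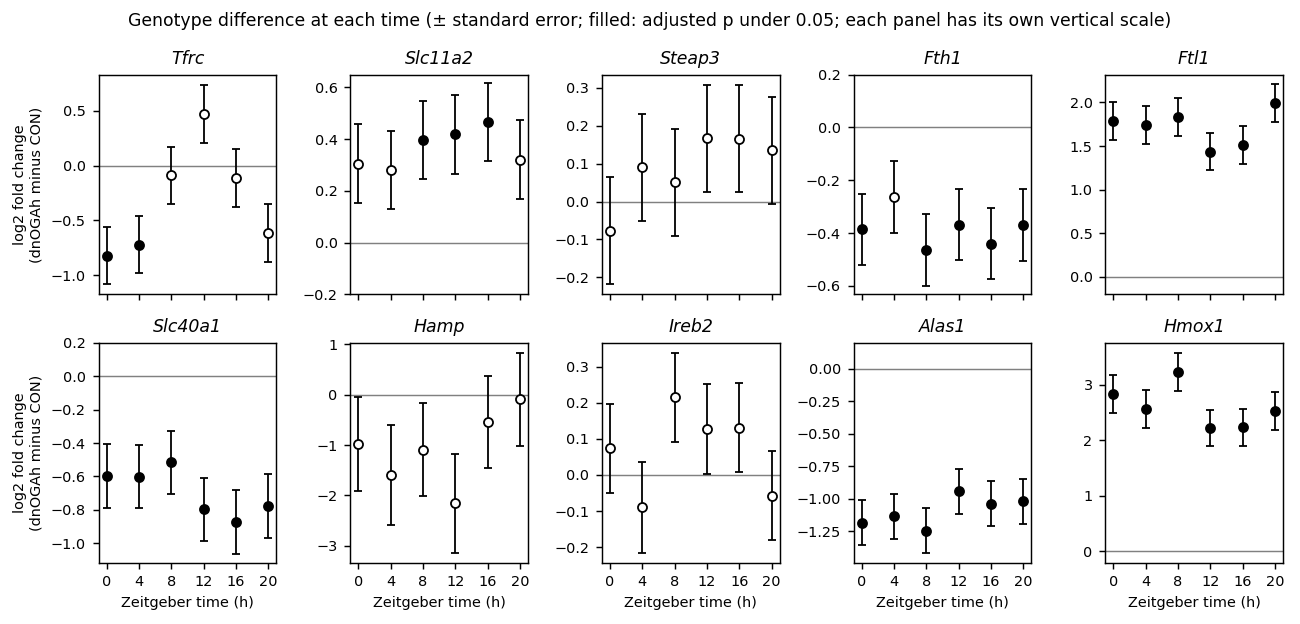
log2 fold change (dnOGAh minus CON, vertical axis, its scale set per panel) of each gene against zeitgeber time in hours. Bars are standard errors, and filled points passed an adjusted p of 0.05. Hmox1, Ftl1, Alas1 and Slc40a1 are filled at all 6 times, Hamp, Steap3 and Ireb2 at none, and Tfrc swings from -0.82 at ZT0 to 0.48 at ZT12. With no TMM factor Fth1 is above 0 at ZT0, ZT8, ZT12, ZT16 and ZT20.

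At single times 34 of the 60 comparisons were called. They were 6 of 10 genes at ZT0 (42.5% of all genes), 5 at ZT4 (32.7%), 6 at ZT8 (46.1%), 6 at ZT12 (31.9%), 6 at ZT16 (40.8%) and 5 at ZT20 (40.0%). In CON hearts the ratio of the highest to the lowest mean over the 6 times was 3.03 for Tfrc and 1.73 for the sparsely counted Hamp, and ran from 1.17 for Slc11a2 to 1.48 for Hmox1 among the other 8 genes. In dnOGAh hearts it was 2.86 for Hamp, 1.73 for Hmox1 and at most 1.31 for the rest. Ftl1 (JTK q = 0.138) and Alas1 (q = 0.254) came nearest to passing in CON after Tfrc, Ftl1 with a peak at ZT12 and Alas1 at ZT0. Without CON ZT4 replicate 4, Ftl1 passed with q = 0.0482.

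Macrophage markers rose together with Hmox1 and Ftl1. Of 11 macrophage and monocyte markers 10 were higher in dnOGAh hearts with TMM (38.8% of all genes were), all but Cd163. None of the 11 was at 0 in any library. Their summed level ran from 298 to 565 CPM in CON (median 395) and from 739 to 4068 in dnOGAh (median 2612). The dnOGAh libraries with the lowest Hmox1 were also low in these markers. They were the library labelled dnOGAh ZT12 replicate 3 (739 CPM), dnOGAh ZT4 replicate 4 (742 CPM, Hmox1 18.0) and dnOGAh ZT20 replicate 5 (1034 CPM, Hmox1 18.7). Ftl1 did not follow in all of them, with 501, 793 and 299.7 CPM in these libraries. Within the 12 groups, the genes whose deviations followed Hmox1 most closely over 60 libraries were Lcp1 (r = 0.879), Soat1 (0.873) and C3ar1 (0.870). Lcp1 is an actin-bundling protein of blood cells and C3ar1 a complement receptor of myeloid cells. Without the 3 libraries that stood apart the values were 0.727, 0.687 and 0.717. The part of macrophages in the Hmox1 and Ftl1 differences was not tested.

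**Figure D4:**
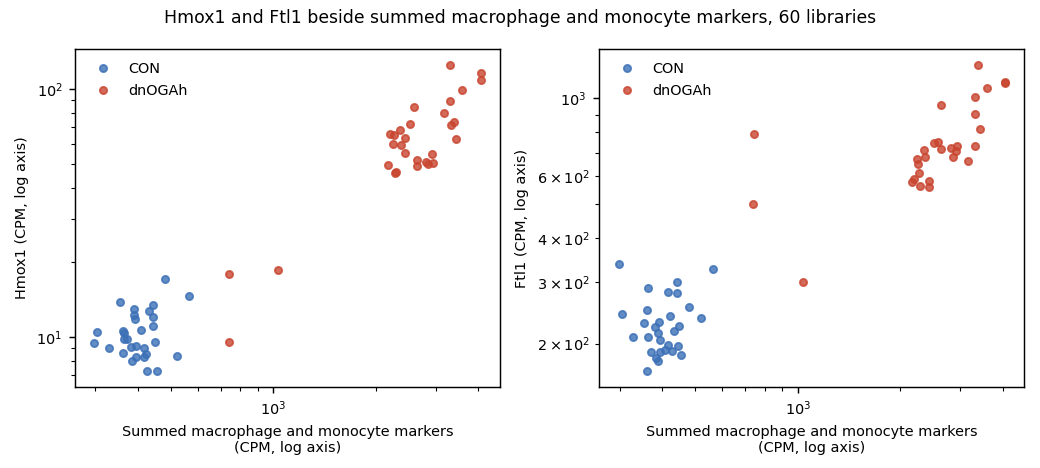
Hmox1 (left) and Ftl1 (right) in CPM against the summed CPM of 11 macrophage and monocyte markers, both axes logarithmic, 1 point per heart (30 CON, 30 dnOGAh). CON hearts lie at marker sums of 298 to 565 and dnOGAh hearts at 739 to 4068, and the 3 dnOGAh hearts with sums of 739, 742 and 1034 have the lowest Hmox1 of their genotype but Ftl1 of 501, 793 and 299.7.

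For the other genes the same description named different partners, over the same 60 libraries, which differ in depth and mitochondrial content. Values without the 3 libraries that stood apart are given second. Alas1 deviated with Slc25a3 (r = 0.896 and 0.770), Sod2 (0.890 and 0.750) and Got1 (0.889 and 0.717), which encode mitochondrial phosphate transport, superoxide dismutase and cytosolic aspartate aminotransferase. Fth1 deviated with Mrps21 (0.879 and 0.856), Dbi (0.871 and 0.850) and Cox6b1 (0.854 and 0.840), and Slc40a1 with Mat2b (0.831 and 0.640), Dsp (0.814 and 0.575) and Rbbp7 (0.805 and 0.538). Tfrc had no close partner, with Glrx (0.688 and 0.493), Slc25a5 (0.681 and 0.492) and Calm2 (0.679 and 0.558) at the top. Hamp deviated with Mybphl (0.806 and 0.806), Myl4 (0.802 and 0.798) and Myl7 (0.770 and 0.765), all genes of atrial myocytes. Among the 10 themselves the highest values were Slc11a2 with Steap3 (0.681 and 0.223), Slc40a1 with Alas1 (0.653 and 0.379) and Fth1 with Alas1 (0.644 and 0.388). The lowest was Steap3 with Ireb2 (-0.60 and -0.15), so these pairs rested largely on the 3 libraries. Some other pairs were stronger without them, such as Ftl1 with Hmox1 (0.568 and 0.705), Slc40a1 with Hmox1 (-0.12 and -0.55) and Alas1 with Hmox1 (-0.35 and -0.53).

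The wider set of iron and heme genes held 89 genes, of which 85 could be tested. In dnOGAh hearts 30 were higher and 44 lower, with a median log2 fold change of -0.14 against 0.06 for all genes, of which 38.8% were higher and 31.9% lower. The higher share of the set was thus near that of all genes. With no TMM factor 48 were higher and 19 lower, where 11766 of all 18119 tested genes were higher and 2067 lower. The median was then 0.33 against 0.54. The roles differed. With TMM, heme synthesis and iron-sulfur cluster assembly were lower nearly throughout, and heme breakdown, uptake and NRF2 targets were mostly higher. Relative to the median of all genes, the uptake median was 0.81 with TMM and 0.84 without. It was 0.38 and 0.39 for heme breakdown, and 0.59 and 0.62 for NRF2 targets. The uptake list also holds genes outside the transferrin cycle, such as Lcn2 and Lrp1, and Lrp1 is in the heme breakdown list too. The uptake members are not in the uptake list. Of them Tfrc was lower, with the change of sign without TMM given above, Slc11a2 was higher and Steap3 was not called. These counts describe the lists beside the shares over all genes just given, and no list was tested as a set.

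Of 16 heme synthesis genes 15 were lower and 1 was not called, with a median of -0.63 (-0.17 with no TMM factor, where 6 were lower and 3 higher). Relative to the median of all genes it barely moved, at -0.69 with TMM and -0.71 without. Alad, the second enzyme of the pathway, fell by 1.34 on the log2 scale, from 76.5 to 30.5 CPM. Uros, which closes the porphyrin ring, fell by 1.23, Abcb10, a mitochondrial transporter, by 0.85 and Cox15, which makes heme A for cytochrome oxidase, by 0.85. The erythroid Alas2 was lower too (-0.75, adjusted p = 0.00105 by edgeR's quasi-likelihood test) but not without TMM (-0.28, adjusted p = 0.209), and 5 of 6 tested erythroid markers, Alas2 among them, were lower. Those markers summed to 133 to 1043 CPM in CON and 46.9 to 594 in dnOGAh, or 433 at most without the 3 libraries, and the part of red cells in Alas2 was not tested. Of 16 iron-sulfur cluster genes 14 were lower and 2 not called, with a median of -0.62 (-0.15 with no TMM factor, where 8 were lower and 3 higher). Relative to the median of all genes, that median was -0.69 on both scales. Bola3 fell by 0.91, the assembly factor Isca1 by 0.81 and the scaffold Iscu by 0.79. Cardiomyocyte markers fell in the same hearts with a median of -1.10, and their part in these 2 groups was not tested.

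Heme breakdown and transport had 8 of 12 genes higher and 2 lower, with a median of 0.44 (10, 1 and 0.93 with no TMM factor). Hp, the gene of the hemoglobin scavenger haptoglobin, was at 7.90 CPM against 2.24 (1.80, adjusted p = 5.99e-09 by edgeR's quasi-likelihood test). Lrp1, a receptor that takes up heme bound to hemopexin, was 1.13 higher and Flvcr1, described as a heme exporter, 1.01 higher, while Flvcr2 fell by 1.22. Of 12 uptake genes 8 were higher and 1 lower, with a median of 0.87 (11, 0 and 1.38 with no TMM factor). Lcn2, which binds siderophores and is abundant in neutrophils, was at 10.4 CPM against 4.02 (1.35). The ferrireductase Steap2 was at 3.69 CPM against 0.611 (2.56). Steap1 (0.973 CPM in dnOGAh hearts) and Tfr2 (0.189 CPM), the second transferrin receptor, were near 0 in CON hearts. Both passed the count filter only through dnOGAh hearts, so the filter itself favoured their calls as higher. Tfr2 had at most 31 counts in a library and was called at 1 of 6 times. For Tfr2, 23 of 30 dnOGAh hearts lay within the CON range. Only Steap4 (q = 0.0206) and the zinc and iron importer Slc39a14 (q = 0.0371) oscillated in CON hearts among the 85 genes, where 2.13% of all genes did, and none in dnOGAh hearts, where 0.171% of all genes did. Their rhythms were not shown to differ between the genotypes (adjusted p = 1 for both by edgeR's quasi-likelihood test). Steap4 was lower in dnOGAh hearts (-0.30, adjusted p = 0.0048 by edgeR's quasi-likelihood test), with the opposite sign without TMM (0.18, adjusted p = 0.21).

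Of 9 NRF2 targets 7 were higher and 1 lower, with a median of 0.65 (8, 0 and 1.16 with no TMM factor). The enzymes G6pdx (1.45), Srxn1 (1.07) and Txnrd1 (0.91) of NADPH and thiol metabolism rose. The cystine importer Slc7a11 was at 0.0402 CPM in CON and 0.309 CPM in dnOGAh hearts. It too passed the count filter only through dnOGAh hearts. Nqo1, a classical target, was lower (-0.40, adjusted p = 2.03e-06 by edgeR's quasi-likelihood test), with the opposite sign without TMM (0.08, adjusted p = 0.522). Among the regulators Nfe2l2, which encodes NRF2 itself, was 0.53 higher, Hif1a 0.57 and the heme-sensing repressor Bach1 0.38 higher, while Epas1, which encodes HIF-2α, fell by 0.99. In all 3 of the 7 regulators were higher and 4 lower (6 and 1 with no TMM factor). Of all genes 38.8% were higher and 31.9% lower with TMM. In export and systemic control 3 of 11 were higher and 6 lower, with a median of -0.24 (6 higher, 3 lower and 0.25 with no TMM factor). Hjv (listed as Hfe2), the coreceptor that raises hepcidin and is abundant in muscle, was at 198 CPM against 411 (-1.06). Its partner Neo1 fell by 0.79, and Bmp2 was 0.75 higher. Tmprss6, the protease that cuts hemojuvelin, was at 0.0414 CPM in CON and 0.394 CPM in dnOGAh hearts. Tmprss6 also passed the count filter only through dnOGAh hearts. In storage and release, Ncoa4 (0.48), which carries ferritin to the lysosome, and the iron chaperone Pcbp1 (0.37) were higher. The chaperone Pcbp2 was lower (-0.28, adjusted p = 0.000591 by edgeR's quasi-likelihood test), with the opposite sign without TMM (0.21, adjusted p = 0.0754).

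**Figure D5:**
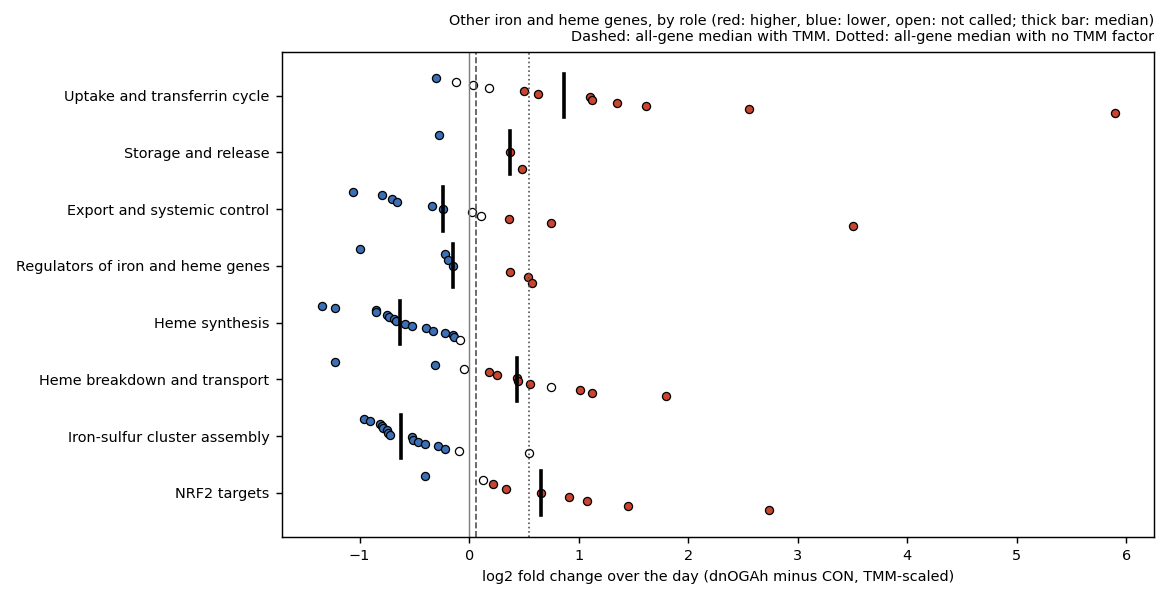
log2 fold change over the day (dnOGAh minus CON, TMM-scaled) of the 85 tested genes of the wider set, 1 row of points per role. Filled points passed an adjusted p of 0.05 (red higher, blue lower), thick bars are medians, and the dashed and dotted lines are the median of all genes with TMM (0.06) and with no TMM factor (0.54). Heme synthesis and iron-sulfur genes lie mostly left of 0, with a less negative median when no TMM factor is used. Relative to the median of all genes, heme synthesis is at -0.69 with TMM and -0.71 without, and iron-sulfur genes at -0.69 on both scales.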

How the data were processed

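The deposited table holds whole-number counts per Ensembl gene for 60 libraries. The authors made these counts with Trim Galore 0.6.7, STAR 2.7.10b and HTSeq 2.0.2 on GRCm39, per the labels, and the annotation release and strand setting are not given in the sources used here. Gene names came from a GRCm38 table (52093 of 53700 rows), so rows carry no coordinates. The filter was filterByExpr with the 12 groups (minimum count 10), and counts were scaled by TMM and tested with edgeR 4.0.16 (quasi-likelihood, Benjamini-Hochberg over 18119 genes, threshold 0.05). The contrasts were the mean genotype difference over 6 times, each time, and time within genotype. Oscillation was tested by JTK_CYCLE (24 h period, q under 0.05), as in the study, on CPM, and by cosinor on log2 CPM (prior count 2). The edgeR tests of genotype and of the rhythm difference, and the JTK test, were also run on simulated counts with known changes. Alternatives used limma 3.58.1, DESeq2 1.42.0, other scaling and filters, and left-out libraries. The scaling without TMM and the removal of single libraries were chosen after seeing the data. The 10 genes and all lists were chosen with earlier results of these data known. From the wider set the text names, per role, the genes that oscillated and the 4 largest called changes whose sign was the same at every time. Some genes that this rule or a marker list would name are not reported here. Alas2, Nqo1 and Hamp2 were named besides, the first 2 after their values were seen. Partners are the 3 genes with the highest r among those averaging 5 CPM or more. The labels do not say whether hearts shared a litter. The edgeR p-values set differences between means against the spread between hearts of a group, and the JTK p-values rest on ranks.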

Additional observations from a re-analysis of the deposited data

Results flagged for a closer look

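In 13 of 120 groups of 5 hearts (10 genes, 12 groups), 1 heart lay farther from the other 4 than Dixon's 95% limit of 0.71 of the range allows, and chance alone does this in about 1 of 20 groups. CON ZT4 replicate 4, the library with 77.6% mitochondrial counts, accounts for 4 of them. It had 1543 CPM of Fth1 (the others 2384 to 2572), 6.20 of Slc40a1 (14.6 to 17.8), 86.5 of Alas1 (236 to 294) and 48.5 of Ireb2 (27.2 to 30.1). dnOGAh ZT4 replicate 4 had 42.8 CPM of Ireb2 (25.7 to 28.2). Ireb2 was thus high in both libraries rich in mitochondrial counts. The library labelled dnOGAh ZT12 replicate 3, with O-GlcNAcase mRNA in the CON range, had 2747 CPM of Fth1 (1873 to 2120).

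Hamp gave 3 such hearts, with 9.71 CPM in CON ZT12 replicate 2 (0.0934 to 1.71), 4.79 in CON ZT8 replicate 4 (0.880 to 1.91) and 2.40 in dnOGAh ZT0 replicate 3 (0.0567 to 0.483). Tfrc was high in dnOGAh ZT16 replicate 2, at 42.1 CPM (25.2 to 28.9), and low in dnOGAh ZT20 replicate 4, at 33.3 CPM (39.2 to 41.4). Fth1 was high in CON ZT20 replicate 2, at 3199 CPM (2243 to 2414). Slc11a2 was low in CON ZT8 replicate 2, at 23.8 CPM (25.7 to 26.4), a group with a narrow range.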

How the results depend on the processing

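With library totals and no TMM factor the sign changed for Tfrc (0.18) and Fth1 (0.0880) over the day, for Fth1 at ZT0 (0.0577), ZT8 (0.0663), ZT12 (0.0749), ZT16 (0.0557) and ZT20 (0.0735), for Slc40a1 at ZT8 (0.0127), and for Ireb2 at ZT4 (0.42) and ZT20 (0.39). This scaling moved the median of all genes by design, and it left 1 rhythm difference and no effect of time on the 10 genes (0 against 1 called). Of the 10 genes 8 were called, and 7 to 10 when 1 replicate number was left out of every group. At single times 34 were called, and 26 to 35. Over all genes, 12813 were called, and 11904 to 12865. Counts of rhythm calls moved with the libraries and the filter. In all 386 genes oscillated in CON (104 to 222 with a replicate number left out, 235 with no filter on low counts, and 387 without replicate 3 of dnOGAh ZT12, the library with O-GlcNAcase mRNA in the CON range), and 31 in dnOGAh (4 to 17, and 37 without that library). Among the 10 genes the CON oscillations ran from 0 to 1, as did effects of time. Rhythm differences numbered 3, 0 to 4 with a number left out, 7 without that library, 12 without the 3 libraries that stood apart, and 325 with no filter. The cause was not tested. Libraries with the same replicate number had mean correlations of -0.0281 to 0.0379 over 12 libraries, with single values down to -0.72. These means do not show whether libraries of the same time and number shared handling. Both libraries rich in mitochondrial counts were replicate 4 of ZT4. With the replicate number as a block, Hamp was not called (-0.79, adjusted p = 0.0794 by edgeR) and Tfrc was called at ZT20 (-0.60, adjusted p = 0.0471). Hamp is the gene that depth limits, with a median of 16 counts in CON and 17 in dnOGAh libraries.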
